A study of Avicennia officinalis with 4 samples.

Results

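The unigenes described here are the 200 whose abundance was higher in the salt-treated root library than in the control library with the same number by the largest margin in both pairs. A unigene is a transcript sequence assembled from the reads without a genome. Of 168308 unigenes of Avicennia officinalis, 42014 had 10 or more raw reads in all 4 libraries, and 41986 of these were left once the unigenes listed by number in the study's candidate tables and interaction network had been set aside. For each one the reads were divided by the library total and scaled to CPM (counts per 1000000 reads), and the log2 ratio of salt to control was taken for number 1 and for number 2. The smaller ratio was the score, and the members were chosen by these measured ratios as the 200 highest scores. The scores ran from 0.89 to 1.81 with a median of 1.0, that is, the weaker pair showed a 1.86-fold to 3.51-fold difference.

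Avicennia officinalis is a mangrove tree, and the study asked how its roots respond to salt. Seedlings raised from wild-collected propagules without NaCl were moved at the four-node stage, at about 2 months of age, to sand watered with half-strength Hoagland's nutrient solution, and the treated plants then received the same solution with 500 mM NaCl for 24 h. Control plants were not given NaCl. There were 2 control and 2 salt libraries of root RNA, each pooled from 3 plants. The reads counted were 22.4 and 17.8 M (M, 1000000) in control replicates 1 and 2 and 21.8 and 17.1 M in salt replicates 1 and 2. Both libraries numbered 1 thus had more reads than both numbered 2.

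Salt in the root medium acts on plant cells by lowering the water potential outside them and by loading them with sodium and chloride ions. Mangrove roots keep most of the salt out, hold ions in vacuoles, lay down barriers in their outer and inner cell layers and make compatible solutes. The table holds unigene numbers, lengths, reads and RPKM (CPM per kilobase of unigene), without gene names or sequences, so no function is given for any member. The root label could be looked at with a single unigene that the study names, Ug86979, a chlorophyll a-b binding protein and so a marker of green tissue. It had 98 and 62 reads in the controls and 18 and 17 in salt (replicates 1 and 2, an order kept below). The study lists this unigene among the genes lowered by salt, and whether the content of green tissue differed was not tested. In bulk root RNA, a change in the share of a cell type and a change in RNA per cell cannot be told apart.

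The salt values of the members below describe how they were chosen, and nothing is read from them as support for a response to salt. In pair 1 their log2 ratios ranged from 0.89 to 4.38 with a median of 1.11 (2.16-fold), and in pair 2 from 0.90 to 3.84 with a median of 1.29 (2.45-fold). Over all 41986 unigenes that could be chosen, the medians were 0.06 and 0.02. The ratio of pair 2 was the larger in 127 members and that of pair 1 in 73. In 102 members both pairs differed by a log2 ratio of 1 or more, and in 10 by 1.5 or more. The larger ratio reached 2 in 29 members and 3 in 9.

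**Figure D1:**
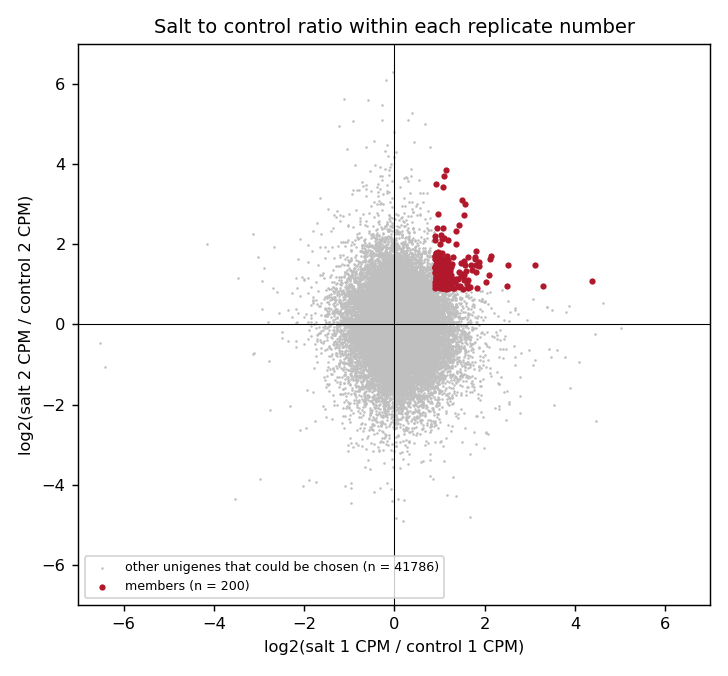
Log2 ratio of salt to control CPM in pair 1 (x axis) and pair 2 (y axis), 1 point per unigene: the 200 members in red and the other 41786 unigenes that could be chosen in grey. The members fill the corner where both ratios are at least 0.89, and most lie close to that edge.

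Of all unigenes that could be chosen, 11914 (28.4%) were higher in salt in both pairs, and 161 were lower in both pairs by at least the size of the lowest member's ratio. Across these 41986 unigenes the 2 ratios had a Pearson correlation of -0.07, and across the members -0.05. These are descriptions across unigenes, which share the same 4 libraries and are not independent replicates.

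The threshold fell on a tie. There were 8 unigenes at the lowest score of 0.89, and 4 of them were taken in by the size of their larger ratio and 4 were not. The last inside were Ug84469 with 20 and 36 reads in control and salt of pair 1 and 15 and 38 in pair 2, Ug4927 with 10 and 18 and then 10 and 24, and Ug28066 with 10 and 18 and then 12 and 28. Just outside stood Ug22537 with 15 and 27 reads in pair 1 and 36 and 79 in pair 2, Ug36855 with 20 and 36 and then 19 and 38, and Ug88881 with 10 and 18 and then 12 and 24. The unigenes on either side of the limit therefore had the same ratio in pair 1, and few reads.

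Among the unigenes set aside because the study lists them by number, 28 had 10 or more reads in all 4 libraries. Of these 28, 6 had scores at or above that of the lowest member. Those with a name were a cationic peroxidase, an ethylene response factor and a vacuolar proton pump. Ug74595, named cationic peroxidase 1, one of the enzymes that oxidise phenolic compounds with hydrogen peroxide, had 2890 and 1893 reads in the controls and 9703 and 9827 in salt. Its log2 ratios were 1.79 and 2.43, and it would have ranked 2 among the members. Ug35061, named ERF114, of a transcription factor family of ethylene signalling, had 28 and 45 control reads and 72 and 321 salt reads (log2 ratios 1.41 and 2.89). Ug29379, named as the pyrophosphate-energized vacuolar membrane proton pump, which moves protons into the vacuole, had 14 and 11 control reads and 29 and 30 salt reads (log2 ratios 1.09 and 1.50). Both salt libraries lay above both control libraries in all 3, and in 10.3% of all unigenes that could be chosen. These 3 are given because of their scores, so the order within each pair was fixed. The other 3, Ug127745, Ug34867 and Ug112803, carry no name in the network. None of the 6 is counted among the 200.

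The highest score was that of Ug121685. It had 0.557 and 2.67 RPKM in control replicates 1 and 2 and 1.95 and 9.44 in salt replicates 1 and 2, from 30, 114, 102 and 388 reads. The salt to control log2 ratios were 1.81 and 1.82, nearly the same, but salt replicate 1 lay below control replicate 2, so that the groups overlapped. The next member, Ug34134, had 0.319 and 0.574 RPKM in the controls and 1.41 and 1.87 in salt (log2 ratios 2.14 and 1.70), and here the groups did not overlap.

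Ug43178 was among the most even of the highest 12 members. Its controls had 1.55 and 1.49 RPKM and its salt libraries 5.37 and 4.75 (log2 ratios 1.79 and 1.67). In Ug71101 the controls had 1.21 and 0.868 RPKM and the salt libraries 5.23 and 2.71 (log2 ratios 2.11 and 1.64). Both showed clear gaps between the control and the salt values. Ug72849 had 2.00 and 4.48 RPKM in the controls and 6.52 and 12.6 in salt (log2 ratios 1.71 and 1.49), again without overlap.

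A group of 3 further members of the highest 12 rested on few reads. Ug108432 had 12 and 16 control reads and 40 and 48 salt reads. Ug74623 had 12 and 16 control reads and 36 and 49 salt reads. Ug111992 had 14 and 26 control reads and 50 and 74 salt reads. All 3 had both salt libraries above both controls, as had 10.3% of all unigenes that could be chosen. Their levels were 0.212 to 1.68 RPKM in the controls and 0.781 to 5.35 RPKM in salt.

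The remaining 4 of the highest 12 differed strongly between the replicate numbers. Ug9914 had 50.9 and 4.61 RPKM in control replicates 1 and 2 and 149.6 and 37.0 in salt replicates 1 and 2 (log2 ratios 1.55 and 3.01). Ug100175 had 79.1 and 7.94 RPKM in the controls and 230.4 and 52.8 in salt (log2 ratios 1.54 and 2.73). In both, control replicate 1 exceeded salt replicate 2. Ug157262 had the opposite order, with 5.0 and 24.9 RPKM in the controls and 14.6 and 75.2 in salt (log2 ratios 1.54 and 1.59). Ug100444 had 8.16 and 1.45 RPKM in the controls and 23.0 and 12.5 in salt (log2 ratios 1.50 and 3.11), and its groups did not overlap. Of these 12 members, 8 had non-overlapping groups, beside 147 of all 200 members and 10.3% of all unigenes that could be chosen.

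**Figure D2:**
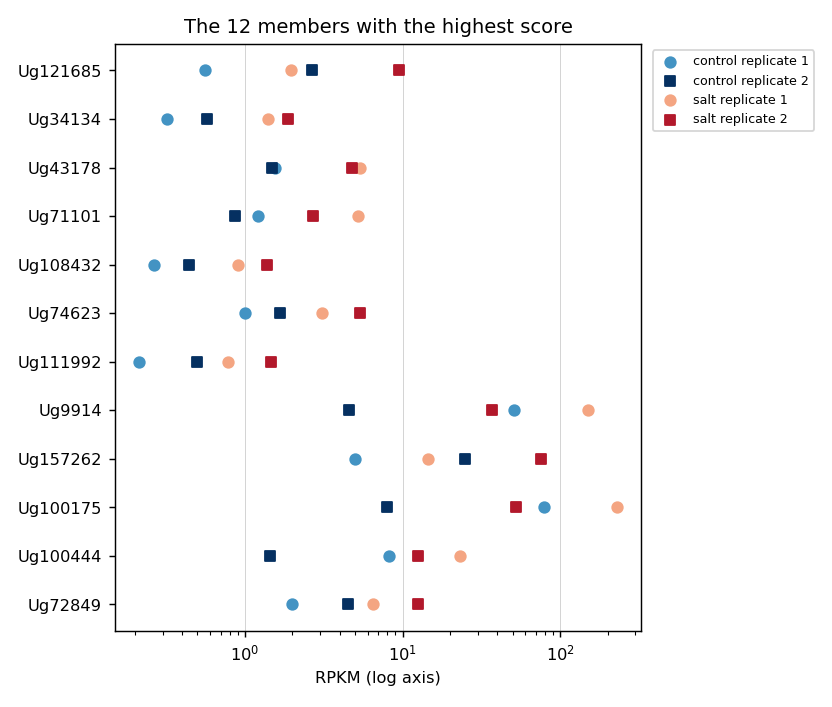
RPKM (log axis) of the 12 members with the highest score in each of the 4 libraries, circles for replicate 1, squares for replicate 2, blue for control and red shades for salt. Each salt symbol lies to the right of the control symbol of the same shape, while in Ug121685, Ug9914, Ug157262 and Ug100175 a control symbol lies to the right of a salt symbol of the other shape.

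Most members were present at low levels. The median of the mean RPKM over the 4 libraries was 2.35, and 156 members had a mean of at least 1 RPKM, 22 of at least 10 and 6 of at least 100. The most abundant by reads was Ug125351, which held 28.8% to 39.7% of all reads of the members in a library. It had 1231 and 544 RPKM in control replicates 1 and 2 and 2743 and 1766 in salt replicates 1 and 2, from 28997, 10163, 62646 and 31735 reads. Both salt values lay above both controls, with log2 ratios of 1.16 and 1.70.

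The other members above 100 RPKM included 4 with profiles much alike, in which control replicate 2 was far below the remaining 3 libraries. Ug62444, the first of them, had 1083 and 204 RPKM in the controls and 2389 and 2923 in salt. Ug126659 had 769 and 141 RPKM in the controls and 1632 and 1526 in salt. Ug87646 had 411 and 71.2 RPKM in the controls and 877 and 922 in salt. In each the salt libraries were close to each other and the 2 controls were not.

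Ug18511, the last of these 4, had 302 and 73.1 RPKM in the controls and 568 and 833 in salt. Within the 4, the ratio was 1.88-fold to 2.21-fold in pair 1 and 10.8-fold to 14.3-fold in pair 2, so that the size of the difference rested on which control library was used. When the log2 CPM of all 41986 unigenes was centred on each unigene's mean, these 4 members were the only ones within 0.5 of Ug62444 in every library, counting Ug62444 itself. They are 403, 442, 628 and 394 bases long, and whether they are pieces or copies of 1 transcript was not tested. Ug49706 had 298 and 59.8 RPKM in the controls and 618 and 164 in salt, and control replicate 1 exceeded salt replicate 2.

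**Figure D3:**
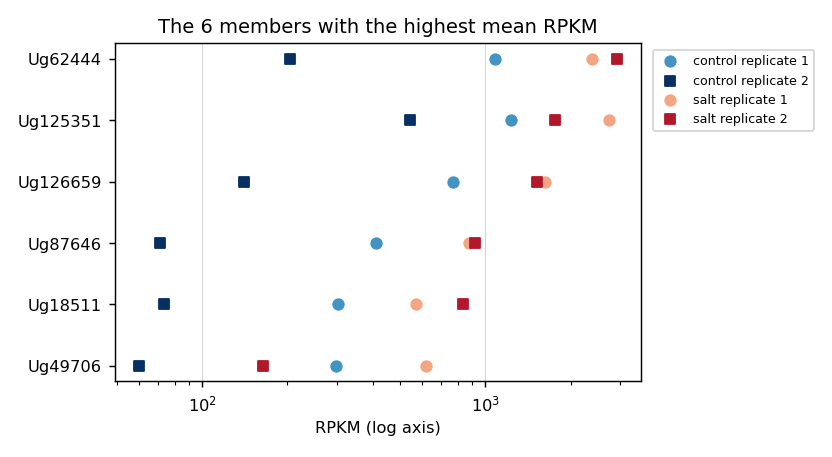
RPKM (log axis) of the 6 members with the highest mean RPKM in each library, with symbols for control (blue) and salt (red shades), circles for replicate 1 and squares for replicate 2. Control replicate 2 is the lowest library in all 6, and salt replicate 2 lies below control replicate 1 in Ug49706 alone.

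Summed over the members, the share of all reads was 0.365% and 0.144% in control replicates 1 and 2 and 0.822% and 0.643% in salt replicates 1 and 2. This was a 2.25-fold difference in pair 1 and a 4.47-fold difference in pair 2. The 6 members with the most reads were those with the highest mean RPKM, except that Ug100175 took the place of Ug49706. Without the 6 with the most reads, the folds were 2.27 and 2.65. The gap between the pairs in the summed share thus lay mostly in those 6 members, which held 56.4% to 74.1% of the members' reads.

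The ratios of the 2 pairs were nearly equal in many members. They differed by at most 0.25 in 88 members and by 1 or more in 22. Of all 41986 unigenes that could be chosen, 10642 differed by at most 0.25 and 10444 by 1 or more. The median gap was 0.29 in the members against 0.54 over all that could be chosen. The rule used both ratios, so this closeness is given as a description. The smallest gaps were those of Ug21425, Ug63233, Ug23066 and Ug124998. Ug124998 was the best counted of them, with 797 and 801 reads in the controls and 1442 and 1438 in salt, a log2 ratio of 0.90 in each pair. Ug21425 had 41 and 14 control reads and 86 and 29 salt reads, and Ug63233 had 31 and 13 control reads and 60 and 25 salt reads. Ug23066, at 227 bases the shortest member, had 23 and 14 control reads and 43 and 26 salt reads.

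The largest gap belonged to Ug72041. It had 0.250 and 6.70 RPKM in the controls and 5.18 and 14.1 in salt, from 13, 277, 262 and 561 reads. Its log2 ratio was 4.38 in pair 1 and 1.07 in pair 2, and the control of pair 2 exceeded the salt library of pair 1. The other members with the widest gaps were Ug62444, Ug18511 and Ug87646, where pair 2 had the larger ratio.

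The members were counted less deeply than the other unigenes. Their median reads were 23 and 19 in the controls and 50.5 and 47.5 in salt, against 80, 64, 82 and 60 over all that could be chosen. The lower control library had under 20 reads in 127 members (63.5%) and in 19.6% of all that could be chosen. The median length was 1182.5 bases, against 1263. The longest member, Ug18025 with 5307 bases, had only 22 and 10 control reads and 41 and 26 salt reads.

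Counting error alone was set beside each ratio as an exact (Clopper-Pearson) 95% interval, which leaves out the variation between plants. Both intervals lay above 0 in 159 members, and in 4.78% of all unigenes that could be chosen. Even read numbers prevailed among low values (62.9% of values from 1 to 20), which can arise where both reads of a pair are counted, and how pairs were counted is not stated. With the reads halved, both intervals lay above 0 in 89 members and in 2.42% of all. The rule used these ratios, so nothing is read from the members' larger share. In 18 members both controls had 100 or more reads. All 18 had both intervals above 0 with the reads halved. At that read number the limit on the score fixes this in advance, so it is no check. The smaller difference of these 18 ran from 1.87-fold to 2.94-fold. In 13 of them the groups did not overlap, beside 147 of all 200 members and 10.3% of all unigenes that could be chosen.

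**Figure D4:**
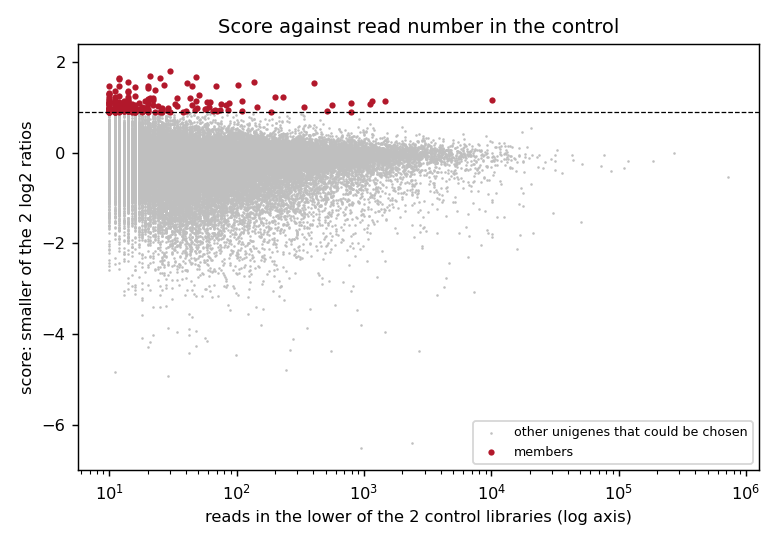
Score, the smaller of the 2 log2 ratios (y axis), against the reads in the lower of the 2 control libraries (x axis, log), for the members (red) and the other unigenes that could be chosen (grey), with a dashed line at the lowest member. Of the 200 members, 127 lie below 20 reads and 18 at 100 or more.

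The rule compared libraries within a number only, so the groups as a whole could overlap. Both salt libraries lay above both control libraries in 147 members, and in 10.3% of all unigenes that could be chosen. In the 53 others, salt replicate 1 did not exceed control replicate 2 in 31 and salt replicate 2 did not exceed control replicate 1 in 22. Salt against control was also fitted over all unigenes. The members were chosen on these same values in the same libraries, so their counts in these fits are descriptions, set beside the share over all unigenes, and are no test of the members. With condition as the only term, edgeR's quasi-likelihood test called 0 members higher in salt at an adjusted p of 0.05, and 0.00% of the 62900 unigenes tested. At an unadjusted p under 0.05 it placed 15 members higher in salt, with 0.0954% of all tested, and DESeq2 with the same term called 0 members at an adjusted p of 0.05, with 0.00159% of all tested, and placed 28 at the unadjusted limit, with 0.188% of all tested. The members' median log2 fold change in the edgeR fit was 1.15. With the replicate number as a block, DESeq2 called 8 members, with 0.0223% of all tested, and edgeR called 0 and placed 114 at an unadjusted p under 0.05, with 0.932% of all tested. The label of a rise in both pairs holds for the order within each pair by construction.

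The difference between the libraries numbered 2 and those numbered 1 was not used to choose the members and was tested with condition in the model. The labels do not say what the numbers stand for. The test called 16 members higher in the libraries numbered 2, with 5.80% of all unigenes tested, and 11 higher in those numbered 1, with 4.82% of all. Together these were 27 of 200 members, and 10.6% of all tested. DESeq2 called 29 members and 9.19% of all, and edgeR without the filter on low counts called 37 members and 10.2% of all. The gap between the ratios is the residual of this model, and it was narrow in the members as given above. Its part in the count, and in the standard errors (SE) and adjusted p of the members named below, was not tested. With the number as the only term the count was 6, with 8.43% of all. In that fit with 1 library left out, it was 14 without control replicate 1, with 5.90% of all, and 22 without salt replicate 1, with 10% of all (7453 of 74357). Without control replicate 2 or without salt replicate 2 it was 0, and so was the count over all unigenes (0.00% in each). Each fit with a library left out had a single library under 1 of the numbers, so these counts are given as descriptions.

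The widest difference was in Ug40805, with 0.226 and 10.6 RPKM in control replicates 1 and 2 and 0.446 and 28.7 in salt replicates 1 and 2. The log2 fold change of number 2 against number 1 was 5.86 ± 0.39 (SE; edgeR adjusted p = 0.0026). Both libraries numbered 1 were low, at 11 and 21 reads. Ug22649 had 34 and 69 reads in the libraries numbered 1 and 234 and 460 in those numbered 2 (log2 fold change 3.17 ± 0.34, edgeR adjusted p = 0.0050). Ug910 had 15 and 28 reads against 72 and 219 (3.05 ± 0.43, edgeR adjusted p = 0.011).

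In the opposite direction, Ug62475 had 25.0 and 57.5 RPKM in the control and salt libraries numbered 1 and 2.15 and 5.18 in those numbered 2. The log2 fold change of number 2 against number 1 was -3.43 ± 0.33 (SE; edgeR adjusted p = 0.0039). Ug74684 had 121.9 and 227.9 RPKM in number 1 and 7.68 and 35.4 in number 2 (-3.26 ± 0.42, edgeR adjusted p = 0.0076). Ug86855 had 8.10 and 16.3 RPKM in number 1 and 0.857 and 1.92 in number 2 (-3.08 ± 0.39, edgeR adjusted p = 0.0076). These 6 members were named for the 3 largest and 3 smallest fold changes of number 2 against 1. It follows from that pick that their difference between the numbers was larger than that between salt and control.

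Between the controls alone, number 2 exceeded number 1 by a log2 ratio of 1 or more in 41 members and fell short by as much in 35, with 124 in between, against 7021, 6264 and 28701 of all 41986 unigenes that could be chosen. Between the salt libraries these counts were 46, 27 and 127 in the members and 6012, 7026 and 28948 in all.

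**Figure D5:**
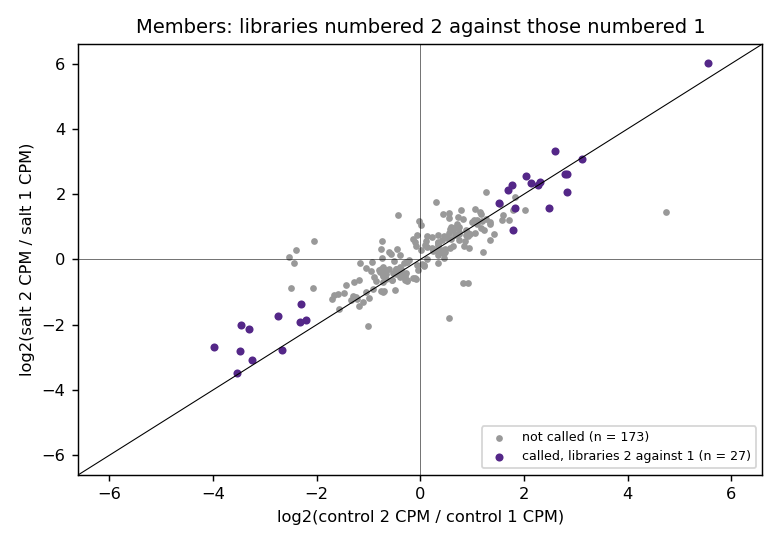
Log2 CPM ratio of number 2 to number 1 in the salt libraries (y axis) against the same ratio in the controls (x axis), 1 point per member, with the line of equality: 27 members called by edgeR in purple and the 173 others in grey. The called members lie at the ends of the line, 16 at the upper right and 11 at the lower left.

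Members were spread over the unigene numbering. No run of 3 or more members with numbers at most 5 apart was found, and 4 pairs of such neighbours held 8 members. They were Ug48188 and Ug48189, Ug60582 and Ug60583, Ug72849 and Ug72850, and Ug86850 and Ug86855, and whether neighbours are pieces of 1 transcript was not tested.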

How the data were processed

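Root RNA of 2 control and 2 salt libraries was sequenced as Illumina reads. The authors assembled the clean reads into unigenes with Trinity and, per their methods, used SOAP for RPKM. Raw read counts per unigene and RPKM were deposited in 1 table, and no other columns of samples were present. The deposited RPKM equalled CPM per kilobase of unigene. The treatment of read pairs and of multiply mapped reads is not stated in these sources.

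The members and lists were chosen with earlier results of these data known. Unigenes numbered in the study's candidate tables or network (299) were set aside. Some network labels could be read only with doubt (49). Ties in score were broken by the larger ratio, then the identifier. Salt against control, and libraries numbered 2 against 1 with condition as a term, were tested on the counts with edgeR 4.0.16 (R 4.3.3, TMM, filterByExpr with a minimum count of 10, quasi-likelihood, Benjamini-Hochberg over 62900 unigenes). All 200 members passed the filter, 169 with both controls above its limit of 0.505 CPM. DESeq2 1.42.0, other normalizations, no filter, a replicate block and leaving out each library were alternatives. Intervals were computed with scipy 1.17.1 and cover counting error only. The SE printed is the absolute log2 fold change divided by the square root of edgeR's F statistic.

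Members were named by rule: the 12 highest scores, the 6 highest mean RPKM, the 4 least and 4 most different ratios, the 3 largest and 3 smallest fold changes of number 2 against 1, the 3 on each side of the limit, the longest and shortest, and the named listed unigenes with scores at or above the lowest member. The group of 4 with like profiles was singled out after its values were seen. The libraries are labelled as biological replicates.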

Additional observations from a re-analysis of the deposited data

How the results depend on the processing

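The members depend strongly on the rule. Of the 200, 79 were chosen again at a minimum of 5 reads and 73 at 20 reads, 112 with 1 added to each CPM, and 86 with the smallest of all 4 salt to control ratios. Without pairing by number, a choice added after seeing the data, 49 were chosen again. TMM-scaled CPM gave 186. The count of members called higher in salt was 0 in all settings run except DESeq2 with the replicate block, which called 8 (and 0.0223% of all tested), Ug100175, Ug9914, Ug75013, Ug74055, Ug72849, Ug121685, Ug125351 and Ug100444. edgeR with the replicate block called 0 members, with 114 at an unadjusted p under 0.05 (0.932% of all tested). These fits reuse the ratios that chose the members. The labels give the numbers no meaning and there are only 2 pairs. The deviations of same-numbered libraries from their group means correlated at 0.66, given as a description. Over the unigenes tested, log2 CPM with 1 added had Pearson correlations of 0.97 and 0.94 between control and salt of numbers 1 and 2. These were higher than the 0.84 between the 2 controls and the 0.87 between the 2 salt libraries. Leaving out each library in turn left a single library in 1 group, and gave the members a median log2 fold change from 1.05 to 1.33. The fold change was above 0 in all 200 when either control library was dropped. Of all unigenes tested, 54.7% were above 0 with the first control dropped and 52.2% with the second dropped. The remaining control was compared in part with its own paired salt library, whose ratio helped choose the members, so this is no check. The members' fold change was above 0 in 192 without salt replicate 1 (lowest -1.41) and in 186 without salt replicate 2 (lowest -3.70). Over all unigenes tested, the share above 0 was 42.3% and 45.6% in these last fits. The members called between libraries numbered 2 and 1 were 6 with the number as the only term, and from 0 to 22 with each library left out (from 0.00% to 10% of all tested), in a fit that lacks the condition term and so lets the salt difference in. Without the filter on low counts they were 37. The cause of these changes was not tested. With 2 libraries per group and a median of 23 and 19 control reads, read number limits what can be said of most members. All 200 stayed higher in salt in both pairs with TMM-scaled CPM and with 1 added, which was fixed in advance and is no check. Adding 1 to both values cannot reverse a ratio. TMM moved the members' log2 ratios by a median of only -0.07 and -0.01 (pairs 1 and 2), against a lowest score of 0.89.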
